A study of Rattus norvegicus with 16 samples.

Results

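The nuclear receptor genes described here encode receptors for steroid hormones, thyroid hormone, oxysterols, bile acids and foreign chemicals, together with a shared dimer partner. They were taken by gene symbol from a list of 9 (Esr1, Nr3c1, Nr3c2, Nr1i2, Nr1i3, Nr1h4, Nr1h3, Rxra and Thrb), and 8 of the 9 were found among the 32623 genes of the deposited count table. Nr3c1, the glucocorticoid receptor gene, was not matched by symbol and is not analysed here. The list names genes by symbol and sets no threshold on measured values, but it was drawn up with earlier results of these data known. RNA sequencing was done on kidney cortex from rats, with 4 libraries for each combination of age (young or old) and sex. In all 4 groups the labels give the genotype as Homo, which they do not explain, and the treatment as none, and they give age as young or old without a number. Diabetic kidney disease is in the study's title, and none of the labels calls a library diabetic. The labels do not say that each library came from its own animal, so each p-value rests on the spread between samples of a group, and that spread may be technical.

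Nuclear receptors are transcription factors switched by small fat-soluble ligands. Steroid receptors such as the estrogen receptor (Esr1) and the mineralocorticoid receptor (Nr3c2) bind DNA as pairs of the same protein, whereas the thyroid hormone receptor (Thrb), the liver X receptor (Nr1h3), the bile acid receptor FXR (Nr1h4), the pregnane X receptor (Nr1i2) and the constitutive androstane receptor (Nr1i3) pair with a retinoid X receptor such as the product of Rxra. In the kidney the mineralocorticoid receptor drives sodium uptake in the distal nephron, and enzymes beside the receptors decide which hormone reaches them: Hsd11b2 inactivates glucocorticoids where the mineralocorticoid receptor acts, and Dio1 makes the active thyroid hormone in the proximal tubule.

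Promoter windows, the 250 bases before the transcription start in the RefSeq table (build GRCr8), were held for 6 of the 8 genes. The windows were searched on both strands for 3 hexamers: AGGTCA, the core site of the receptors that pair with a retinoid X receptor and of the estrogen receptor; AGAACA, the core site of the glucocorticoid and mineralocorticoid receptors; and GGGCGG, the GC box. None of the 6 windows held AGGTCA, which 14.1% of all 33469 promoter windows of that length held. Only the Nr1i2 window held AGAACA, at 1 place, against 17.5% of all windows, and GGGCGG was in the Rxra window at 2 places and in the Thrb window at 4 places, against 30.5% of all windows. The windows of Esr1, Thrb and Nr1i2 are shown because these genes passed the test as lower in old than in young males in every setting tried. Matches are in capitals. The Esr1 window is chr1:43641845-43642094 on the plus strand, the Thrb window chr15:10461447-10461696 on the minus strand and the Nr1i2 window chr11:75965467-75965716 on the plus strand, each printed along its gene's strand.
Esr1: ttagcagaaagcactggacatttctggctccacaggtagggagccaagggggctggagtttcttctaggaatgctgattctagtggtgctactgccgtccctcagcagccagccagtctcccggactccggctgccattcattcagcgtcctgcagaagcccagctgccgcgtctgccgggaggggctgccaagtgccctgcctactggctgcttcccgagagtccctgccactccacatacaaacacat
Thrb: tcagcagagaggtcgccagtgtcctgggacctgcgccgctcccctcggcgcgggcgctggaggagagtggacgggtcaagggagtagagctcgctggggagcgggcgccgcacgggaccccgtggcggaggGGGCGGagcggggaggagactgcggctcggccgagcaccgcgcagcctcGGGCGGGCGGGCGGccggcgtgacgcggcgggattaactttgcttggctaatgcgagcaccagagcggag
Nr1i2: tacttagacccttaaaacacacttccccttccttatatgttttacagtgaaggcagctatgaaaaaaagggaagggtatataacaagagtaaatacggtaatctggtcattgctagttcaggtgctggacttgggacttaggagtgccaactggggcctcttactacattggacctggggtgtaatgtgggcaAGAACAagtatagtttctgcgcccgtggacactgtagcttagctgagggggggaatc
The 3 windows differ in composition. G and C made up 74.0% of the Thrb window, with 33 CG pairs, 59.6% of the Esr1 window, with 8 CG pairs, and 46.0% of the Nr1i2 window, with 3 CG pairs, where the median over all windows was 51.2% and 5 CG pairs. In the Thrb window 3 of the 4 GGGCGG matches overlap each other. A match is a match of letters only, and a window without one says nothing about binding elsewhere.

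Libraries held between 10827485 and 35957516 counts, the shallowest and the deepest both from old males. The Y-linked genes Eif2s3y and Kdm5d had 0 counts in all 8 female libraries and 967 to 3726 and 324 to 1326 counts in the male libraries, so no sex label was contradicted. Old male replicate 4 stands apart: it was the shallowest library and the only old male library whose identifier in the labels begins with DS rather than OP, and the summed level of 5 thick ascending limb markers was lowest in it, 1437 CPM (counts scaled to a common library total) where the other libraries reached up to 8055 CPM. All 8 young libraries carry DS, and so do old female replicates 3 and 4. The labels do not explain the prefixes, and between young and OP libraries age and prefix cannot be told apart. In bulk RNA, fewer cells of a type and less RNA per cell cannot be told apart.

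Levels were compared between genes per length, as the authors' deposited RPKM (reads per length of gene and per library total), which are scaled to library totals. Among the 46 measured nuclear receptor genes, which lack Nr3c1, Nr1h3 ranked 2 by its mean over all libraries, after Hnf4a. Nr1h4 ranked 10, Rxra 12, Thrb 15, Nr1i2 19, Nr3c2 22, Esr1 24 and Nr1i3 38. Nr1h3 (42.2 RPKM) and its relative Nr1h2 (41.6 RPKM) lay close. The mean of Nr1h2 was above that of Nr1h3 in young females (41.85 against 40.93 RPKM) and in old males (46.78 against 42.35 RPKM). In old females the mean of Vdr was above it (47.83 against 41.29 RPKM). The other estrogen receptor gene, Esr2, had a mean of 0.00456 RPKM and too few counts to be tested. Nr1h3 was highest of the 8 genes in every group, from 40.9 ± 3.75 RPKM in young females to 44.3 ± 5.19 RPKM in young males (SD, n = 4 here and below), and overlapped no other of them. Below it the order depended on the group. In young females it ran Nr1h4 (17.7), Thrb (13.0), Rxra (12.3), Nr1i2 (9.94), Nr3c2 (6.85), Esr1 (3.41) and Nr1i3 (0.918 RPKM), where the libraries of the neighbours Thrb and Rxra overlapped and those of all other neighbours did not. In old females the order was the same, with overlap also between Nr1i2 and Nr3c2. In young males Esr1, at 11.3 ± 1.58 RPKM, lay above Nr1i2 and Nr3c2, and Nr1h4, Rxra and Thrb overlapped in turn. In old males Rxra, at 20.2 ± 2.13 RPKM, overlapped Nr1h4, and Nr1i2, Nr3c2 and Esr1 overlapped in turn between 2.51 and 6.73 RPKM.

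**Figure D1:**
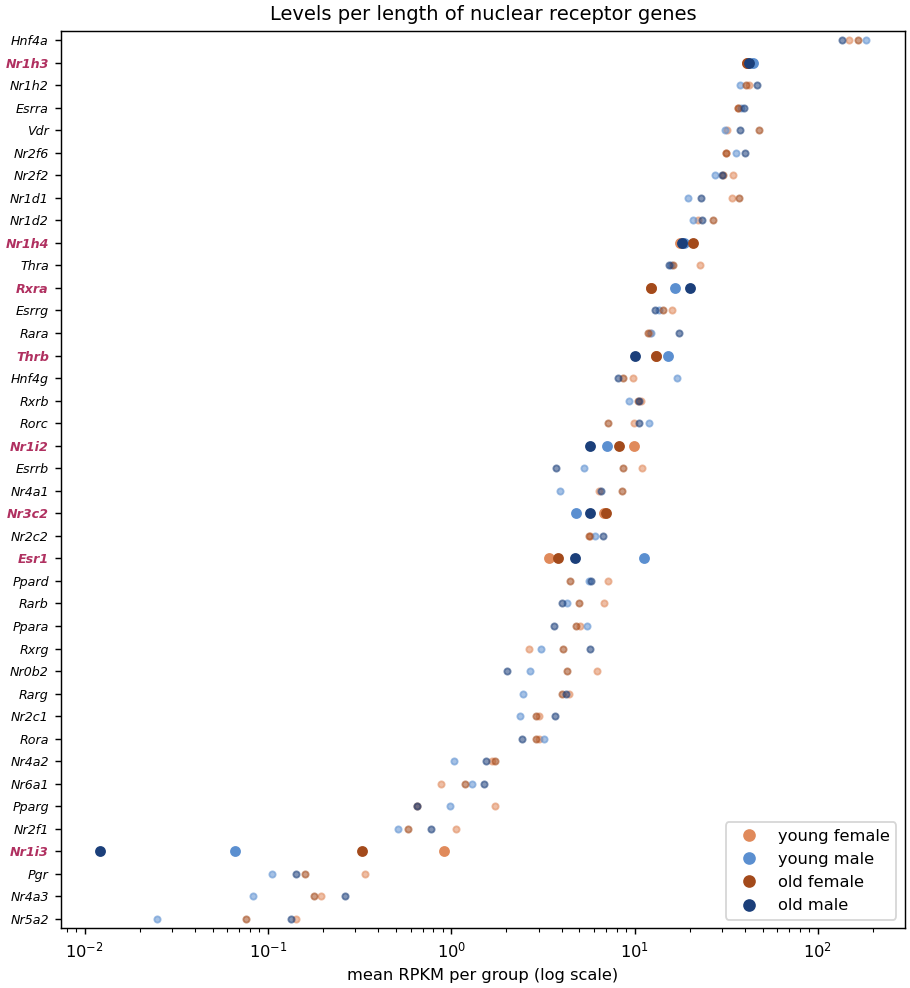
Mean RPKM per group (log scale, n = 4 libraries each) of the nuclear receptor genes reported here with a mean over all libraries of at least 0.05 RPKM, with the 8 genes described here in bold. Nr1h3 lies near the top in every group, Esr1 of young males (11.3 RPKM) lies apart from the other groups, and Nr1i3 spans from 0.0121 RPKM in old males to 0.918 RPKM in young females.

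All further levels are CPM with TMM scaling, and each test is edgeR's quasi-likelihood test with p-values adjusted over the 14390 genes tested and a threshold of 0.05. All 8 genes passed the filter on low counts. Nr1i3 did so only through its level in young females, so its calls are a description. In this paragraph each count of calls that includes it is also given without it. In young males against young females 6 of the 8 changed: Esr1, Rxra, Thrb and Nr1h3 were higher and Nr1i3 and Nr1i2 lower (5 of 7 without Nr1i3). Of all genes tested, 31.8% changed in this comparison, 16% higher and 15.7% lower. In old against young males 6 of the 8 were lower (Esr1, Thrb, Nr1i2, Nr1h3, Nr1h4 and Nr1i3) and none higher. Without Nr1i3, which has 7 and 2 counts there, it was 5 of 7. Of all genes 50.0% changed in this comparison, 25.3% higher and 24.6% lower. With age in females only Nr1i3 changed, downward (0 of 7 without it), where 5.71% of all genes changed, 2.54% higher and 3.17% lower. In old males against old females Rxra was higher and Nr1i3, Nr1i2, Thrb, Nr1h4 and Nr3c2 were lower (5 of 7 without Nr1i3), where 49.3% of all genes changed, 25.5% higher and 23.8% lower. The age change itself differed between the sexes for 5 of the 8, in each case being lower in males (Esr1, Thrb, Nr1h4, Nr1h3 and Nr1i2), where the same test was passed by 38.7% of all genes, 19.3% with a lower value in males. The median log2 fold change of the 8 genes, Nr1i3 included, was −0.52 between old and young males against −0.003 over all genes. Between old and young females it was 0.07 against 0.0. Without Nr1i3 the middle of the 7 values was −0.39 (that of Nr1h3) in males and 0.07 in females. The comparisons share libraries, so their values are given side by side and are not independent. Scaling bears on the male comparisons. Scaled by library totals alone instead of TMM, the median gene moves to 0.32 between old and young males. It moves to −0.175 between young males and females and to 0.21 between old males and females, and single genes move by like amounts. With library totals 7849 of all genes were called higher and 1329 lower in old than in young males. For young males against young females these were 1132 and 4470. List counts with library totals below are read beside these.

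**Figure D2:**
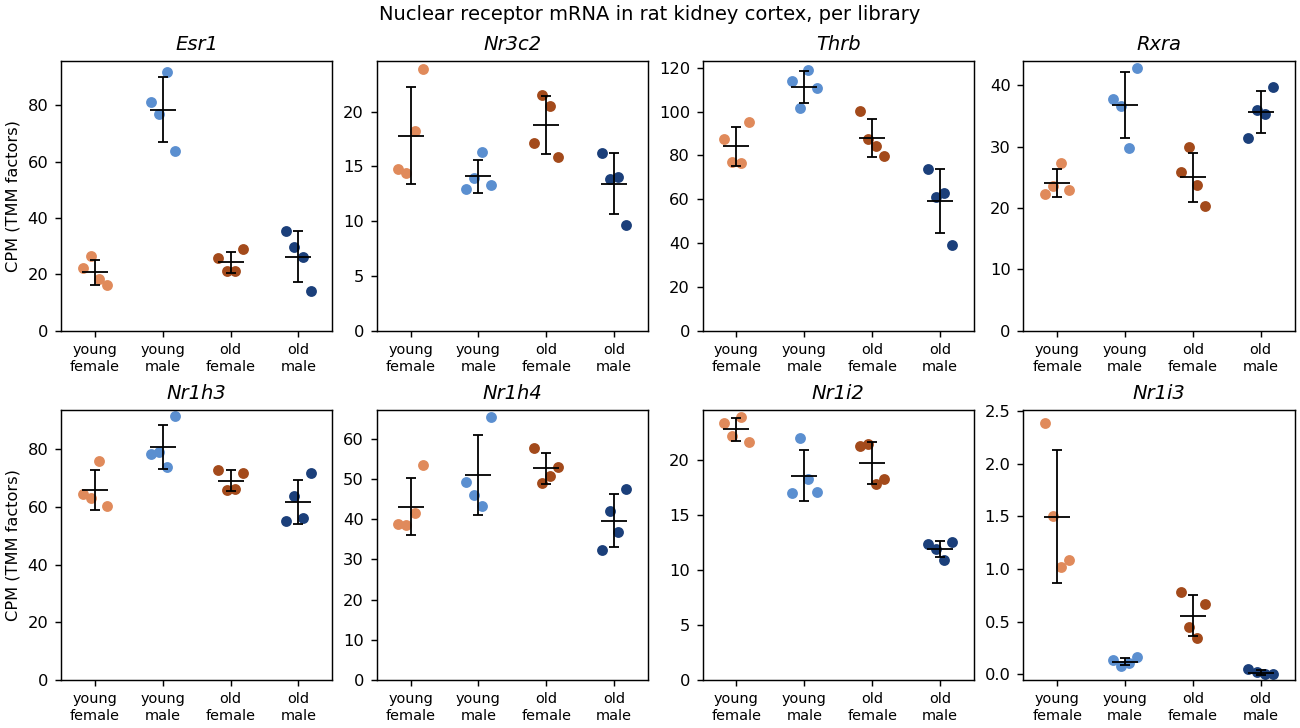
Level of each of the 8 genes in every library (dots, CPM with TMM factors), with the group mean and SD (black, n = 4). Esr1 of the 4 young males lies between 63.9 and 91.8 CPM, above all 12 other libraries, and Nr1i2 of the 4 old males lies between 10.9 and 12.5 CPM, below all 12 others.

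**Figure D3:**
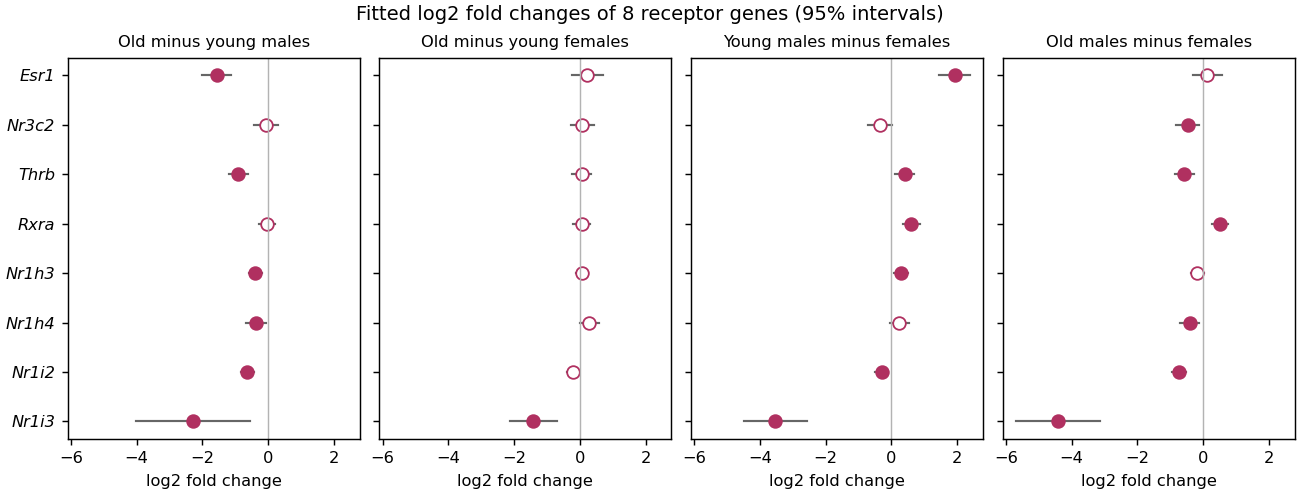
Fitted log2 fold changes with 95% intervals of the 8 genes in 4 comparisons, filled where the adjusted p was under 0.05. All 8 points lie left of 0 in old against young males, those of Rxra (−0.04) and Nr3c2 (−0.06) close to it. In old against young females the filled point is that of Nr1i3.

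Esr1 (ENSRNOG00000019358, chromosome 1 of Rnor_6.0), the main estrogen receptor gene, stood out by its level in young males. It read 22.1, 26.4, 18.5 and 16.1 CPM in young females and 81.2, 77.0, 91.8 and 63.9 CPM in young males. Old females had 25.9, 21.3, 21.1 and 28.9 CPM and old males 35.5, 29.7, 26.1 and 13.9 CPM. Young males did not overlap any other group, and the other 3 groups overlapped one another. Esr1 was 3.79-fold higher in young males than in young females (log2 fold change 1.92 ± 0.22 SE, adjusted p = 4.56e-06). It was 2.95-fold lower in old than in young males (log2 fold change −1.56 ± 0.21, adjusted p = 1.27e-05). Between old and young females the log2 fold change was 0.23 (95% interval −0.23 to 0.70, adjusted p = 0.608), and the age change in males was below that in females by 1.79 ± 0.30 on the log2 scale (adjusted p = 0.000226). Between old males and old females the log2 fold change was 0.13 (95% interval −0.32 to 0.58, adjusted p = 0.635). With the DS libraries alone the only old male library is replicate 4, which stands apart, and its spread is assumed to be like that of the other groups. There the old male sex difference was −0.86 (adjusted p = 0.0467) and the male age change −2.50 (adjusted p = 4.55e-05). The authors' deposited table of comparisons lists Esr1 with a log2 fold change of 1.91 for young males over young females and 1.57 for young over old males.

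Nr3c2 (ENSRNOG00000034007, chromosome 19 of Rnor_6.0), the mineralocorticoid receptor gene, passed 1 of the 4 comparisons. It read 14.8, 14.4, 18.2 and 23.9 CPM in young females and 12.9, 13.9, 16.3 and 13.3 CPM in young males. Old females had 17.2, 21.5, 20.5 and 15.9 CPM and old males 16.2, 13.8, 14 and 9.65 CPM. The groups overlapped in each of the 4 comparisons. Nr3c2 passed the test in old males against old females alone, at a log2 fold change of −0.47 ± 0.17 (adjusted p = 0.0266). That call is lost with library totals (−0.27, adjusted p = 0.158) and without old female replicate 2, old female replicate 3 or old male replicate 4 (adjusted p = 0.0821, 0.0617 and 0.066). With library totals the call moved to young males against young females, at −0.52 (adjusted p = 0.0188), where the value reported with TMM was −0.34 (adjusted p = 0.146). The age changes were −0.06 in males (95% interval −0.42 to 0.30) and 0.07 in females (95% interval −0.28 to 0.42), and their sign changed with the scaling or with single libraries.

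Thrb (ENSRNOG00000006649, chromosome 15 of Rnor_6.0), which encodes a thyroid hormone receptor, was highest in young males and lowest in old males. It read 87.5, 77.2, 76.7 and 95.3 CPM in young females and 114, 102, 119 and 111 CPM in young males. Old females had 100.2, 87.6, 84.5 and 79.6 CPM and old males 73.8, 61.2, 62.7 and 39.1 CPM. Old males lay below every other library, and old male replicate 4 lowest of all. Thrb was 1.87-fold lower in old than in young males (log2 fold change −0.91 ± 0.14, adjusted p = 4.61e-05) and 1.48-fold lower in old males than in old females (−0.57 ± 0.14, adjusted p = 0.00266). With age in females its log2 fold change was 0.06 (95% interval −0.23 to 0.35), and the age change was lower in males by 0.97 ± 0.19 on the log2 scale (adjusted p = 0.000966). These 3 calls held in every setting tried, of which the DS libraries alone leave 1 old male library. The difference between young males and young females, 0.40 ± 0.14 (adjusted p = 0.0339), was lost in 9 of 28 settings, among them library totals (0.22, adjusted p = 0.214) and the removal of any of young female replicates 1, 2 and 3 or young male replicates 1, 3 and 4 (adjusted p of 0.0563 to 0.103).

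Rxra (ENSRNOG00000009446, chromosome 3 of Rnor_6.0), the gene of the shared dimer partner, differed by sex at both ages and not detectably by age. It read 22.2, 23.6, 27.3 and 22.9 CPM in young females and 37.8, 36.5, 29.8 and 42.8 CPM in young males. Old females had 25.9, 29.9, 23.8 and 20.4 CPM and old males 31.4, 36, 35.4 and 39.7 CPM. Males and females did not overlap within either age. Rxra was 1.53-fold higher in young males (log2 fold change 0.61 ± 0.12, adjusted p = 0.00104) and 1.43-fold higher in old males (0.51 ± 0.12, adjusted p = 0.0019) than in females of the same age. The call in the young was lost with a score of inner medulla genes as a covariate (0.35, adjusted p = 0.312). The call in the old held in every setting tried. The age changes were −0.04 in males (95% interval −0.29 to 0.21) and 0.06 in females (95% interval −0.20 to 0.32). In males the sign turned with upper-quartile factors (0.04) and with library totals (0.28, adjusted p = 0.0529).

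Nr1h3 (ENSRNOG00000013172, chromosome 3 of Rnor_6.0) encodes liver X receptor alpha, the oxysterol receptor that turns on cholesterol efflux. It read 64.6, 63.0, 76.1 and 60.3 CPM in young females and 78.5, 79.2, 73.7 and 91.7 CPM in young males. Old females had 73.0, 65.8, 66.3 and 71.7 CPM and old males 55.1, 63.8, 56.2 and 71.7 CPM. All 4 old males lay below all 4 young males, with the highest old male close to the lowest young male. The fitted log2 fold change between old and young males was −0.39 ± 0.09 (adjusted p = 0.00217), but it was −0.07 with library totals (adjusted p = 0.571), where the median gene stood at 0.32, and −0.18 with the DS libraries alone (adjusted p = 0.367). The deposited RPKM, scaled to totals, were 44.3 ± 5.19 in young and 42.4 ± 5.50 in old males. Young males exceeded young females by 0.29 ± 0.09 on the log2 scale (adjusted p = 0.0244), a call lost in 7 of 28 settings, among them the removal of young female replicate 1, 2 or 4 or young male replicate 4 (adjusted p of 0.0694 to 0.0857). The difference between old males and old females was −0.17 (95% interval −0.36 to 0.03), which without old male replicate 4 became −0.25 (adjusted p = 0.0283) and with library totals 0.03. The age change was lower in males than in females by 0.46 ± 0.13 (adjusted p = 0.011), a call lost with library totals (−0.08, adjusted p = 0.649) and with the DS libraries alone (−0.24, adjusted p = 0.351).

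Nr1h4 (ENSRNOG00000007197, chromosome 7 of Rnor_6.0) encodes FXR, the bile acid receptor, which is known in the kidney as well as in the liver and gut. It read 38.8, 38.5, 41.5 and 53.5 CPM in young females and 49.2, 46.1, 43.3 and 65.5 CPM in young males. Old females had 57.8, 49.1, 50.7 and 53.1 CPM and old males 32.4, 42.1, 36.7 and 47.5 CPM. Old and young males overlapped, and old males lay below old females in all libraries. The fitted values were −0.37 ± 0.14 for old against young males (adjusted p = 0.0368) and −0.41 ± 0.14 for old males against old females (adjusted p = 0.0196). The male age call was lost in 10 of 28 settings, among them library totals (−0.04, adjusted p = 0.813), the prefix as a covariate (−0.27, adjusted p = 0.234) and the removal of young male replicate 1 or 4 or old male replicate 1 or 3 (adjusted p of 0.0527 to 0.16). The old male sex call was lost in 6, among them library totals (−0.21, adjusted p = 0.225) and the removal of old female replicate 1 or old male replicate 1 or 3 (adjusted p of 0.0507 to 0.0576). With age in females the log2 fold change was 0.29 (95% interval 0.00 to 0.58, adjusted p = 0.255), and the age change was lower in males by 0.65 ± 0.20 (adjusted p = 0.0144), a call lost with library totals (−0.28, adjusted p = 0.263) and with the DS libraries alone (−0.38, adjusted p = 0.348).

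Nr1i2 (ENSRNOG00000002906, chromosome 11 of Rnor_6.0) encodes the pregnane X receptor, a sensor of drugs and steroids. It read 23.4, 22.3, 23.9 and 21.7 CPM in young females and 17.0, 22, 18.3 and 17.1 CPM in young males. Old females had 21.4, 21.5, 17.9 and 18.3 CPM and old males 12.4, 12.0, 10.9 and 12.5 CPM. Old males were below all other libraries, within a narrow range. Nr1i2 was 1.56-fold lower in old than in young males (log2 fold change −0.64 ± 0.09, adjusted p = 2.98e-05) and 1.66-fold lower in old males than in old females (−0.73 ± 0.09, adjusted p = 6.89e-06), and both calls held in every setting tried, with the same limit for the DS libraries alone. Old females also lay below young females in all libraries, at −0.21 ± 0.09, which missed the threshold (adjusted p = 0.21). Young males lay below young females by 0.30 ± 0.09 on the log2 scale (adjusted p = 0.0214), a call lost without young female replicate 3 or young male replicate 1, 3 or 4 (adjusted p of 0.0514 to 0.0657). The age change was lower in males than in females by 0.43 ± 0.13 (adjusted p = 0.0153), but by 0.04 with library totals (adjusted p = 0.766). That call was also lost with upper-quartile factors (adjusted p = 0.0529), the DS libraries alone (adjusted p = 0.398) and the inner medulla covariate (adjusted p = 0.266).

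Nr1i3 (ENSRNOG00000003260, chromosome 13 of Rnor_6.0), the constitutive androstane receptor gene, was the rarest of the 8 and the one most tilted to females. It read 2.39, 1.5, 1.02 and 1.09 CPM in young females and 0.138, 0.0795, 0.112 and 0.163 CPM in young males. Old females had 0.778, 0.449, 0.345 and 0.665 CPM and old males 0.0488, 0.0244, 0 and 0 CPM. The listed values did not overlap in any of the 4 comparisons, but in males they are too few counts to show it. These levels rest on 81 counts in young females, 34 in old females, 7 in young males and 2 in old males, and a count of 0 in old male replicates 3 and 4 allows up to 0.102 and 0.247 CPM, which reaches the young male values. From the summed counts the level was 12.2 times higher in young females than in young males (95% interval 5.66 to 31.3, counting error only) and 28.8 times higher in old females than in old males (95% interval 7.39 to 248). The fitted log2 fold changes were −3.54 and −4.41. Since the gene passed the filter only through young females, its fitted values and adjusted p in all 4 comparisons are a description. They are not a test, and this holds for the 2 age comparisons below too. Young females exceeded old females 2.67 times (95% interval 1.77 to 4.11; adjusted p = 0.0232), a call lost with the prefix as a covariate (adjusted p = 0.0607), with the DS libraries alone (0.116), with the inner medulla covariate (0.276), with the 2 groups alone (0.0652) and without young female replicate 1 or 2 or old female replicate 2 or 3 (adjusted p of 0.0515 to 0.105). Young males exceeded old males 6.3 times on 7 against 2 counts (95% interval 1.2 to 62.1; adjusted p = 0.0293), a call lost with the DS libraries alone (adjusted p = 0.207) and without young male replicate 1, 3 or 4 or old male replicate 2, 3 or 4 (adjusted p of 0.0508 to 0.075).

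Genes whose groups did not overlap in CPM were also counted, without a fit. Among the 8 genes, 5 did not overlap between old and young males (Esr1, Thrb, Nr1i2, Nr1h3 and Nr1i3), where 46.3% of all genes did not. Between old and young females 2 did not (Nr1i2 and Nr1i3), where 11.1% of all genes did not. Between the sexes 4 did not overlap in the young (Esr1, Rxra, Thrb and Nr1i3), against 31.1% of all genes. In the old 5 did not (Rxra, Thrb, Nr1i2, Nr1h4 and Nr1i3), against 44.6%. Nr1i3 is thus in every one of these counts, with 7 counts in young and 2 in old males. For Nr1i2 in females the gap was narrow, from 21.5 CPM in the highest old to 21.7 CPM in the lowest young library.

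The supply of ligands was described with a list of 25 tested genes of hormone and ligand metabolism and transport. In old against young males 13 were lower and 4 higher, with a median log2 fold change of −0.44 (8 lower and 8 higher with library totals). Dio1, the deiodinase that makes active thyroid hormone, fell from 362 ± 24.0 to 149.5 ± 50.5 CPM in males (2.41-fold, adjusted p = 4.6e-05) and was at 207 ± 27.2 and 222 ± 24.7 CPM in young and old females. Crym, which encodes a cytosolic binder of thyroid hormone, fell from 331 ± 22.5 to 136 ± 39.0 CPM in males (adjusted p = 2.38e-06). Hsd17b4, a peroxisomal enzyme that also oxidises estradiol, fell from 534 ± 29.6 to 306 ± 9.86 CPM (adjusted p = 3.19e-08). Aldh1a2, which makes retinoic acid, rose from 4.11 ± 0.345 to 10.5 ± 0.714 CPM (adjusted p = 6.59e-07) in males and in females fell from 9.53 ± 1.30 to 5.65 ± 1.0 CPM (adjusted p = 0.00472), a female call lost with the inner medulla covariate (adjusted p = 0.205) and with DS libraries alone. Hsd11b2 passed no test, with 319 ± 22.5 CPM in young females, 348 ± 73.8 CPM in young males, 382 ± 45.4 CPM in old females and 406 ± 44.0 CPM in old males (adjusted p of 0.163 to 0.593 in the 4 comparisons). In young males against young females 10 of the 25 were higher and 6 lower (8 and 7 with library totals), among them Hsd17b1, which makes estradiol from estrone, at 5.61 ± 1.43 CPM against 0.404 ± 0.228 CPM (adjusted p = 9.87e-07). Sts, the sulfatase that frees steroids from their sulfates, was lower in males at both ages, with 24.3 ± 3.10 against 46.1 ± 2.65 CPM in the young and 16.9 ± 1.08 against 33.6 ± 6.13 CPM in the old (adjusted p = 8.74e-06 and 1.87e-06).

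Of 34 other tested nuclear receptor genes, 12 were lower and 6 higher in old than in young males, with a median of −0.16. Of all genes, 24.6% were lower and 25.3% higher in that comparison, and 3.17% lower and 2.54% higher with age in females. The balance of the 34 turned with library totals (4 lower and 9 higher), where 1329 of all genes were lower and 7849 higher. Hnf4g and Hnf4a, receptors that maintain epithelial genes, were 2.61-fold and 1.70-fold lower in old males (adjusted p = 1.09e-07 and 2.5e-05). Gper1, a membrane receptor for estrogen that the list also holds, rose from 0.278 ± 0.162 to 1.24 ± 0.349 CPM in males (adjusted p = 0.000777). In the young male libraries 3 counts correspond to 0.168 to 0.244 CPM, so the young male level rests on few counts and the size of the rise is uncertain. With age in females 1 of the 34 was higher, Vdr, the vitamin D receptor gene, at 218 ± 21.6 against 140.0 ± 33.9 CPM (adjusted p = 0.00773), and 1 lower, Pparg, at 1.52 ± 0.476 against 3.90 ± 0.493 CPM (adjusted p = 0.00906). Both female calls were lost with the inner medulla covariate (adjusted p = 0.0796 and 0.304) and with DS libraries alone. Of 22 coregulator and chaperone genes, 4 were higher and 2 lower in old males (11 and 1 with library totals), read beside the same all-gene values. Nrip1, a corepressor gene induced by estrogen, was higher in males than in females at both ages, by 1.43-fold in the young and 1.79-fold in the old (adjusted p = 3.65e-05 and 8.73e-08). Fkbp5, which encodes a receptor chaperone and is a classic target of the glucocorticoid receptor, passed no test, at 23.4 ± 11.1 CPM in young females, 42.3 ± 38.4 CPM in young males, 45.5 ± 14.9 CPM in old females and 53.6 ± 28.3 CPM in old males.

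Target genes of the receptors moved in both directions, and each list is read beside the share of all genes given above. Counts with library totals are read beside the all-gene counts with library totals. For age in males these were 7849 higher and 1329 lower of the 14390 genes tested. Of 16 estrogen receptor targets, 5 were lower and 2 higher in old than in young males (4 and 7 with library totals). Prlr, the prolactin receptor gene, read 11.9 ± 2.21 CPM in young females, 139 ± 17.7 CPM in young males and 40.0 ± 18.8 CPM in old males (adjusted p = 4.47e-07 for sex in the young and 8.03e-05 for age in males). Ctsd, which encodes the lysosomal protease cathepsin D, rose from 594 ± 31.2 to 1461 ± 288 CPM in males (adjusted p = 8.39e-07). Of 18 mineralocorticoid receptor targets, 2 were higher and none lower in old males (10 and 0 with library totals), 4 were higher and none lower in old females, and 5 were lower and none higher in old males against old females. All 4 female calls (Slc12a3, Scnn1b, Klk1 and Wnk1) were lost with the inner medulla covariate (adjusted p of 0.191 to 0.467), that of Klk1 in 9 and that of Wnk1 in 14 of 28 settings, among them the removal of single libraries. Slc12a3, the thiazide-sensitive sodium chloride cotransporter gene, read 525 ± 117 CPM in young and 1015 ± 225 CPM in old females (adjusted p = 0.00505). Klk1, the kallikrein gene, read 1511 ± 300 CPM in old females and 669 ± 177 CPM in old males (adjusted p = 0.000141). Of 18 glucocorticoid receptor targets, 2 were higher and none lower in old against young females, with a median of 0.46. The Mt2A call was lost in 1 and the Sult1a1 call in 2 of 28 settings. In old against young males 6 of the 18 were higher and 1 lower, with a median of 0.37. Those that rose included Lcn2, from 3.98 ± 0.144 to 108 ± 30.9 CPM, and Cebpd, from 3.18 ± 1.07 to 11.7 ± 3.63 CPM (adjusted p = 8.85e-10 and 1.32e-05), which are also known to be induced in injury and inflammation and of which Lcn2 is on the injury list below. The gene that fell was Pck1, of gluconeogenesis, from 3260 ± 2065 to 995 ± 234 CPM (adjusted p = 0.001, and 0.157 with the DS libraries alone).

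Of 13 thyroid hormone receptor targets, 6 were lower and 1 higher in old than in young males, with a median of −0.46 (3 and 2 with library totals), and none passed in old against young females. Me1, the malic enzyme gene, fell from 242 ± 27.9 to 92.5 ± 12.6 CPM in males (adjusted p = 1.41e-07), and Dio1 is given above. Ucp2, a mitochondrial carrier gene, rose from 18.6 ± 2.04 to 61.4 ± 12.2 CPM (adjusted p = 7.98e-07). Of 14 liver X receptor targets, 6 were higher and 2 lower in old males, with a median of 0.24 (8 and 2 with library totals), opposite in direction to the fitted change of Nr1h3. In young males against young females 1 was higher and 7 lower, with a median of −0.53. In old males against old females 7 were higher and 2 lower (median 0.35). With age in females 3 were lower and none higher (median −0.27). Those female calls, of Abcg1, Mylip and Lpl, were lost in 1, 3 and 7 of 28 settings. Abca1, the cholesterol efflux pump gene, read 26.5 ± 1.76 CPM in young females, 18.1 ± 1.34 CPM in young males, 23.5 ± 3.67 CPM in old females and 39.8 ± 5.22 CPM in old males. Old males were above and young males below all other groups on average. Abca1 rose 2.21-fold with age in males (adjusted p = 4.83e-07). Apoe, of lipoproteins, rose from 322 ± 59.9 to 770 ± 198 CPM (adjusted p = 0.000292), and Abca7, a relative of Abca1, fell from 84.8 ± 9.48 to 31.3 ± 13.1 CPM (adjusted p = 6.25e-05). Of 13 FXR targets, 5 were higher and 4 lower in old males (6 and 1 with library totals). Slc51b, a subunit of the basolateral bile acid and steroid transporter, read 0.799 ± 0.296 CPM in young females and 41.2 ± 3.73 CPM in young males, and 0.687 ± 0.364 CPM in old females and 23.2 ± 11 CPM in old males (adjusted p = 4e-08 and 6.31e-08). Nr0b2, the gene of the corepressor SHP, was lower in males at both ages, at 3.34 ± 0.901 against 6.80 ± 1.33 CPM in the young and 2.01 ± 0.635 against 4.84 ± 1.21 CPM in the old (adjusted p = 0.00417 and 0.000573). Kng1 and Fgb, of kininogen and fibrinogen, rose 6.88-fold and 7.36-fold with age in males (adjusted p = 1.03e-07 and 1.29e-06).

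Of 12 tested genes listed for the pregnane X and constitutive androstane receptors, 4 were higher and 2 lower in old than in young males. Between young males and young females 3 were higher and 5 lower in males. Whether these receptors control the listed genes, Cyp2c11 among them, was not tested. Cyp2c11, a steroid hydroxylase gene, had 0 counts in all 8 female libraries, which allows at most 0.25 CPM in the shallowest, and 118 ± 15.6 CPM in young and 3.51 ± 2.84 CPM in old males (adjusted p = 8.85e-06 for age in males). Gsta2, of glutathione conjugation, read 33.1 ± 2.48 CPM in young females, 98.9 ± 5.23 CPM in young males and 29.5 ± 6.04 CPM in old males (adjusted p = 1.22e-07 for sex in the young and 3.97e-08 for age in males). Gsta3, of the same family, was lower in males at both ages, at 19.3 ± 1.58 against 119 ± 25.1 CPM in the young and 18.2 ± 4.68 against 118 ± 24.5 CPM in the old (adjusted p = 4.61e-08 and 1.57e-08). Gsta2 and Gsta3 have close relatives, and reads shared between them could have been split by the counting.

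**Figure D4:**
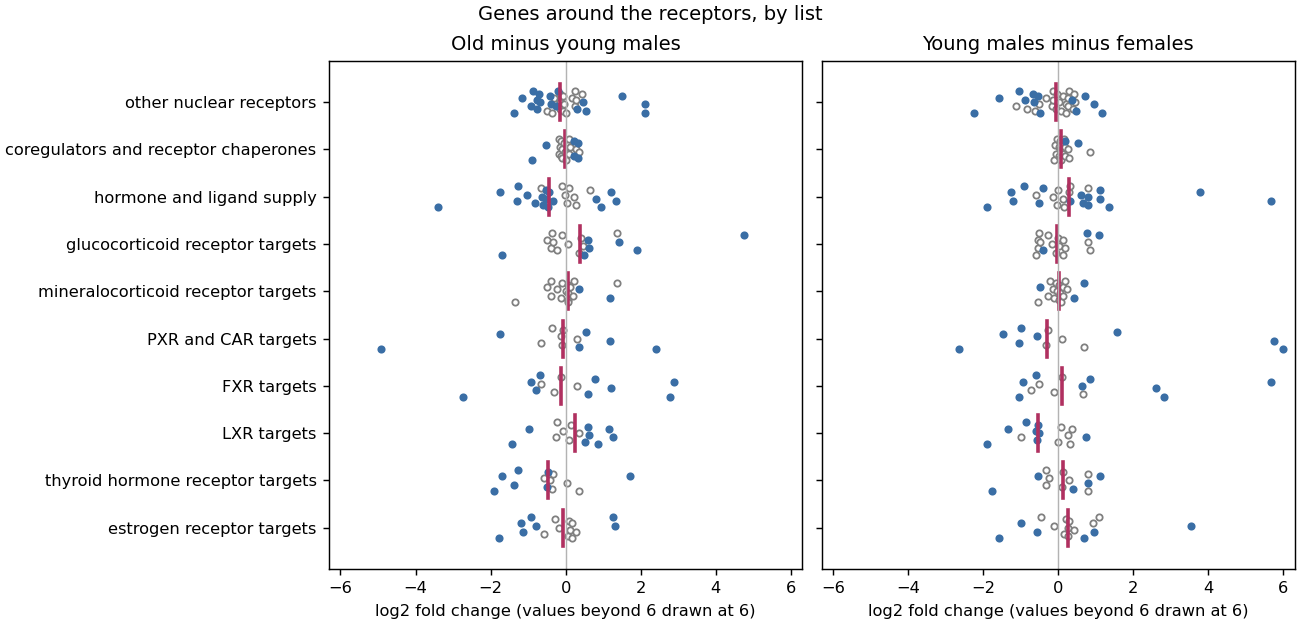
Fitted log2 fold change of each tested gene of 10 lists around the receptors (dots, filled where the adjusted p was under 0.05) and the median of each list (bar), for old against young males and for young males against females. The thyroid hormone target median lies at −0.46 and the liver X receptor target median at 0.24 in old against young males.

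For each gene, the tested genes with a mean of at least 2 CPM whose log2 CPM followed it most closely over the 16 libraries were found among 12256 genes. The libraries share groups, so these correlations follow the group means and are descriptions. Closest to Esr1 were the unnamed gene AABR07001382.2, the pseudokinase gene Trib2 and the renalase gene Rnls (Pearson r of 0.979, 0.973 and 0.969). Trib2 read 117 CPM on average in young males and 52.0, 51.9 and 57.2 CPM in young females, old females and old males. Closest to Nr1i2 were the mitochondrial enzyme genes Ethe1 and Hsd17b10 (r of 0.972 and 0.966), and closest to Nr1i3 the transcription factor gene Sim1 and the semaphorin gene Sema3d (r of 0.974 and 0.965). Closest to Thrb were Heatr5b and Rpap1 (r of 0.969 and 0.968), to Rxra Kctd17 (r of 0.939), to Nr3c2 Cyp2s1 (r of 0.925), to Nr1h3 Smim24 (r of 0.919) and to Nr1h4 the peroxisomal gene Pxmp4 (r of 0.91), followed by Pck1 (r of 0.884).

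Some marker lists of cell types also differed between old and young males, and others did not. None of the 6 principal cell, 5 intercalated cell and 3 tested distal convoluted tubule markers passed in that comparison. Of 5 thick ascending limb markers 1 was higher and none lower. Among podocyte markers 3 of 5 were lower, and among endothelium markers 3 of 4, with none higher in either. Of 4 fibroblast and mesangium markers 2 were higher and 1 lower. The summed level of 10 proximal tubule markers, all of which were measured, lay between 7184 and 8653 CPM in old males, between 13460 and 14180 CPM in young males and between 11140 and 15260 CPM over the female libraries, and 6 of the 10 were lower and 2 higher in old than in young males. The 8 tubule injury genes were all higher in old males, with sums of 631 to 786 CPM in young males and 9963 to 18680 CPM in old males, against 865 to 1409 CPM over the 8 female libraries. All 7 tested macrophage markers and all 7 T and NK cell markers were higher in old than in young males, with sums of 150 to 250 CPM against 68.3 to 87.5 CPM and of 24.1 to 36.3 CPM against 3.44 to 5.12 CPM. B and plasma cell markers summed to 22 to 43.8 CPM in old males and to at most 5.04 CPM in any other library. Cd79a was not found by symbol. The entry Cd79al, matched to it through a synonym, was at 0 throughout, which leaves the level of Cd79a itself unknown. The part of these in the changes of Esr1, Thrb, Nr1i2, Nr1h3 and Nr1h4 was not tested. A score of inner medulla genes, the mean log2 CPM, was 3.5 to 4.59 in young females and 0.67 to 2.16 in young males, and among old females 0.92 and 0.99 for OP and 3.16 and 3.21 for DS libraries. With that score as a covariate, Esr1, Nr1i3 and Nr1i2 still differed between young males and young females, and Rxra (0.35, adjusted p = 0.312), Thrb (0.37, adjusted p = 0.412) and Nr1h3 (0.26, adjusted p = 0.367) no longer passed. Without it Thrb stood at 0.40 and Nr1h3 at 0.29. Young females do not overlap young males or old females in the score. Score and group can thus hardly be told apart in those 2 comparisons, and a lost call can reflect lost precision. Of all genes, 1314 passed between the young sexes with the score and 4574 without it. Liver markers varied within groups, with sums of 1.12 to 163 CPM in young males and 1.48 to 138 CPM in old males, and the distal convoluted tubule marker Pvalb was at 0 in every library.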

How the data were processed

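Total RNA (RNeasy Micro Kit) was made into stranded mRNA libraries (TruSeq) per the labels' protocols. The authors deposited 1 table of raw counts and RPKM per gene for the 16 libraries, and tables of their own comparisons with log2 fold changes and p-values and q-values, per the file headers. The build Rnor_6.0 and edgeR 3.8.6 are named in the submitters' processing notes. No source used here names the aligner, the counter or its strand setting. From the deposited counts, 14390 genes passed filterByExpr and held 99.93% of counts. They were tested with edgeR 4.0.16 in R 4.3.3 (TMM factors, 1 quasi-likelihood model with a mean for each group over all libraries, Benjamini-Hochberg adjustment, threshold 0.05), and the scripts were tested on simulated data. Intervals for count ratios and limits from 3 counts cover counting error only. The members and lists were chosen with earlier results of these data known. Genes were named by rule: all members, and up to 4 called list genes with the smallest p per list and comparison. The 3 closest genes per member and 6 further chosen genes (Hsd11b2, Fkbp5, Nr0b2, Abca1, Dio1 and Cyp2c11) were added. Replicate numbers did not pair the samples: correlations of same-numbered deviations ran from −0.131 to 0.204, where every pair had to exceed 0.1. Libraries of a group differed beyond sampling noise (chi-square per degree of freedom of 6.28 or more). Alternatives were other scaling factors, DESeq2 1.42.0, limma 3.58.1 (voom), other filters, a replicate block, the identifier prefix or the inner medulla score as a covariate, the DS libraries alone, the 2 groups alone, and leaving out each library. The list of other nuclear receptor genes holds 1 gene that is counted but not reported here.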

Additional observations from a re-analysis of the deposited data

Results flagged for a closer look

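The age change differed between the sexes, by the test of the difference itself, for 5 of the 8 receptor genes. Taking the female age change from the male one gave −1.79 on the log2 scale for Esr1 (adjusted p = 0.000226, edgeR quasi-likelihood test), −0.97 for Thrb (adjusted p = 0.000966), −0.65 for Nr1h4 (adjusted p = 0.0144), −0.46 for Nr1h3 (adjusted p = 0.011) and −0.43 for Nr1i2 (adjusted p = 0.0153). With library totals the last 3 were lost, at −0.28 for Nr1h4 (adjusted p = 0.263), −0.08 for Nr1h3 (adjusted p = 0.649) and −0.04 for Nr1i2 (adjusted p = 0.766), and with the DS libraries alone they were lost too (adjusted p of 0.348 to 0.398). The same test was passed by 38.7% of all genes. No single library stood far from the other 3 of its group among the 32 sets of 4 values.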

How the results depend on the processing

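Of the 8 genes' log2 fold changes, 1011 of the values under other settings kept direction and call, 66 lost the call, 2 gained it with the same sign and 28 changed sign, 1 of which then passed (Esr1 in old males against old females, DS libraries alone, where 1 old male library is assumed to vary like the other groups). Of the 66 lost calls, 7 were of Nr1i3 for age in males and 8 of Nr1i3 for age in females. The counts of the 8 genes that follow include Nr1i3 wherever it was tested, and its calls are a description. Without changing the call in any setting tried, Esr1 stayed lower in old males, higher in young males and different in its age change between sexes. Thrb and Nr1i2 stayed lower in old males in both comparisons, also without changing the call. The count of the 8 genes called in old against young males was 3 with the DS libraries alone. In old against young females it was 0 with the stricter CPM filter (which removes Nr1i3), the prefix covariate, the inner medulla covariate, the DS libraries alone and the 2 groups alone. It was 3 in young males against females with the inner medulla covariate, and for the age-by-sex difference 2 with library totals and 2 with the DS libraries alone. Over all genes, the DS libraries alone gave 273 calls for age in females and 4266 for sex in the old, and the inner medulla covariate gave 43 for age in females and 1314 for sex in the young. Leaving out 1 library gave 4 to 6 of the 8 genes called for age in males (6408 to 7331 of all genes), 0 to 1 for age in females (314 to 1043), 3 to 6 for sex in the young (3684 to 4756), 5 to 6 for sex in the old (6365 to 7207) and 5 to 5 for age by sex (5031 to 5507). With a replicate block, 6, 1, 6, 6 and 5 of the 8 were called (7245, 837, 4583, 7134 and 5653 of all genes), and the replicate numbers pair no samples. With library totals, genes called higher and lower numbered 7849 and 1329 for age in males (3644 and 3545 with TMM), 1132 and 4470 for sex in the young (2308 and 2266) and 6066 and 1831 for sex in the old (3664 and 3431), and 6677 and 898 for age by sex (2786 and 2777). Upper-quartile factors gave 4484 and 2699 for age in males. With TMM-scaled RPKM, mean levels moved to 5.36 for Nr3c2, 7.97 for Nr1i2 and 17.0 for Thrb in young males and to 5.12 for Nr1i2 and 17.9 for Rxra in old males.

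Among the 8 genes, the values that changed sign were of differences not called with the settings reported. For Esr1 in old males against old females they were −0.01 with the prefix covariate and −0.86 with the DS libraries alone, and −0.04 to 0.31 over single libraries left out. For Nr3c2 they were 0.02 with upper-quartile factors and 0.27 with library totals for age in males (−0.16 to 0.05 over libraries left out), −0.07 with the prefix covariate for age in females (−0.02 to 0.25) and 0.25 with library totals for age by sex. For Nr1h3 in old males against old females they were 0.03 with library totals and 0.04 with the DS libraries alone. For Rxra they were 0.04 with upper-quartile factors, 0.28 with library totals and 0.11 with the DS libraries alone for age in males (−0.13 to 0.04), −0.16 with the inner medulla covariate and −0.12 with the DS libraries alone for age in females (−0.04 to 0.14), and 0.28, 0.23 and 0.08 with library totals, the DS libraries alone and the inner medulla covariate for age by sex. For Thrb in females with age they were −0.15 with the prefix covariate and −0.03 with the DS libraries alone (−0.01 to 0.13). Nfkbia in young males against young females moved to 0.11 with the inner medulla covariate. The cause was not tested. Depth limits Nr1i3, whose male levels rest on 7 and 2 counts.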
